A study of Mus musculus with 4 samples.

Results

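The breakdown of the branched-chain amino acids leucine, isoleucine and valine was examined through 10 genes, each taken with every probe set that carries its symbol alone. All 10 were on the array, with 13 probe sets in all, out of 12393 genes with a probe set of their own, and no probe set joined a member to another gene. RNA came from gastrocnemius, a calf muscle, of 2 MCK-PPARa samples and 2 NTG samples. MCK-PPARa mice overexpress the nuclear receptor PPARα in muscle from a transgene driven by the muscle creatine kinase (MCK) promoter, and NTG are their non-transgenic wild-type littermates, which carry no transgene. The sources used here do not give strain, sex or age, nor do they say whether the transgenic mice come from 1 founder line. The design text speaks of 2 mice per genotype but also of replicates, so the p-values below measure only the spread between these 4 arrays, which may in part be technical.

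Branched-chain amino acids are broken down largely outside the liver, and skeletal muscle is a main site of the opening step, in which a transaminase removes the amino group. The resulting keto acids are oxidised in mitochondria by the branched-chain keto acid dehydrogenase complex, the committed step, which a dedicated kinase switches off by phosphorylation. The pathway then divides into a leucine arm that ends in acetyl-CoA and acetoacetate, a valine arm and an isoleucine arm that both yield propionyl-CoA. PPARα activates genes of fatty acid oxidation, and the comparison asks whether genes of this neighbouring mitochondrial pathway differ in muscle that overexpresses it.

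The values are linear MAS5 signals that the authors scaled to nearly the same trimmed mean, 1500.6 to 1500.7, on each of the 4 arrays. Changes are MCK-PPARa minus NTG on the scale log2(signal + 64.2), with the standard error (SE) and 95% interval of limma's moderated test (n = 2 arrays per group), adjusted over all 8400 genes tested. The offset shrinks changes of dim genes. The targeted gene Ppara read 633 and 2674 in NTG, against 7969 and 15226 in MCK-PPARa, so both transgenic arrays lay above both controls (3.003 ± 0.617 SE, limma adjusted p = 0.21). The 9 skeletal muscle markers were all above the filter on dim probe sets, and their summed signal was 1190009 to 1238493 in NTG and 1256201 to 1371984 in MCK-PPARa. Arrays of the same number also resembled each other. The 5′ control for 18S rRNA read 2202 and 2313 on the arrays numbered 1 and 28.9 and 44.7 on those numbered 2, NTG before MCK-PPARa. Markers of hepatocytes followed the same split: albumin (Alb) read 19525 and 9394 on the arrays numbered 1 and 666 and 1148 on those numbered 2. The summed signal of the 3 hepatocyte markers was 1181 and 28630 in NTG, against 2199 and 13752 in MCK-PPARa, and it did not separate the genotypes.

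No member of the pathway passed the test between the genotypes. All 10 genes passed the filter on dim probe sets and were tested, 0 rose and 0 fell, and at an unadjusted limma p under 0.05 the count was also 0. Among all 8400 genes, 5 passed (0.0595%), of which 4 were higher (0.0476%) and 1 lower (0.0119%), and 491 (5.85%) did so before adjustment, so that a count of 0 among 10 is near the background. The members' changes ran from -0.52 to 0.66, with 5 above 0 and 5 below. Their median was 0.040, against 0.053 over all genes tested, and the median absolute change was 0.16 against 0.27. Signals of both transgenic arrays lay above both controls for 2 members, Mccc2 and Hibadh, where 20.3% of all genes did so. For 0 members they lay below both controls, where 13.8% of all genes did so, so the groups did not overlap for 2 of 10 members and for 34.2% of all genes. The limma adjusted p-values of the 10 genes were between 0.964 and 0.998. With 2 arrays a group the intervals are wide, and the highest upper and lowest lower bounds over the members were 1.63 and -1.45 on the log2 scale.

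**Figure D1:**
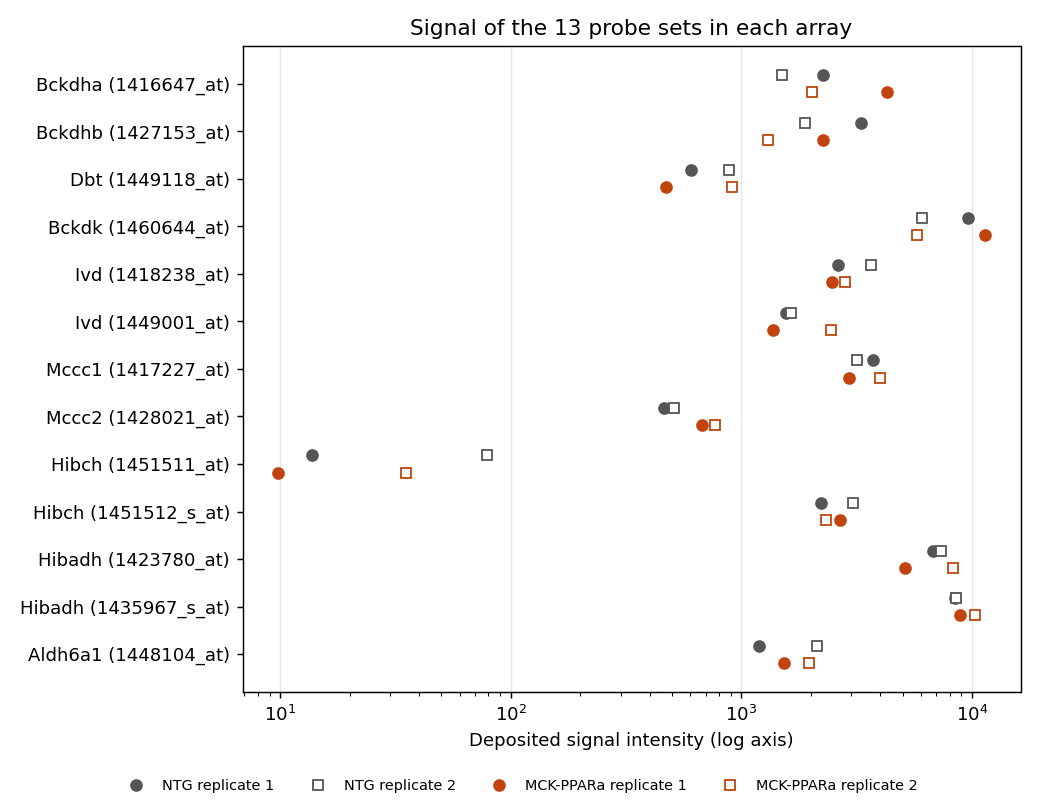
Deposited signal (log axis) of each of the 13 probe sets on each array, with NTG in grey and MCK-PPARa in orange, filled circles for replicate 1 and open squares for replicate 2. The 2 genotypes overlap for all probe sets except Mccc2 (1428021_at) and Hibadh (1435967_s_at), where both transgenic arrays lie to the right of both controls.

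The branched-chain keto acid dehydrogenase complex is built from an E1 decarboxylase made of α and β subunits (Bckdha and Bckdhb), an E2 transacylase core (Dbt) and a shared E3 component. Bckdha (1416647_at) read 2261 and 1495 on the control arrays numbered 1 and 2, against 4286 and 2020 in MCK-PPARa replicates 1 and 2. The MCK-PPARa replicate 1 array stood highest, the other transgenic array fell between the 2 controls, and each was above the control of the same number. The change of 0.66 ± 0.42 was the highest among the members and did not pass (95% interval -0.31 to 1.63, limma adjusted p = 0.96). Bckdhb (1427153_at), the partner subunit, read 3294 and 1881 in NTG, against 2257 and 1303 in MCK-PPARa. The groups overlapped again, and each transgenic array was below the control of the same number. The change was -0.52 ± 0.40, the lowest of the members (95% interval -1.45 to 0.41, limma adjusted p = 0.96). Dbt (1449118_at) read 603 and 886 in NTG, against 470 and 909 in MCK-PPARa, so the transgenic arrays held both the lowest and the highest value (-0.14 ± 0.45, limma adjusted p = 0.99).

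The windows before the starts of these 2 E1 subunit genes and of Mccc2 are shown because they are the members with the largest changes in either direction. They are RefSeq's 250 bases before the gene's start, build GRCm38.p6, 5′ to 3′ on the gene's own strand. PPARα binds with its partner RXR to direct repeats of AGGTCA spaced by a single base, and capitals mark AGGTCA on either strand.
Bckdha, chr7:25658762-25659011, minus strand: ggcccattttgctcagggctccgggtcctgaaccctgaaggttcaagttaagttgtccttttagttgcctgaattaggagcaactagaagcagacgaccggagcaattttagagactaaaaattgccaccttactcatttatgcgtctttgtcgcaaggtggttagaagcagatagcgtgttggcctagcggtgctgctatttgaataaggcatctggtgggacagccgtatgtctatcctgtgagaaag
Bckdhb, chr9:83924887-83925136, plus strand: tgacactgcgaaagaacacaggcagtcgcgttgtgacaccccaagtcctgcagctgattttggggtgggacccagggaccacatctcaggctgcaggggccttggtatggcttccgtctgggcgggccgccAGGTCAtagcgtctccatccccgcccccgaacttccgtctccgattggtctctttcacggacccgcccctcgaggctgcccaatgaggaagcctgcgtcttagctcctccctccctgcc
Mccc2, chr13:100015640-100015889, minus strand: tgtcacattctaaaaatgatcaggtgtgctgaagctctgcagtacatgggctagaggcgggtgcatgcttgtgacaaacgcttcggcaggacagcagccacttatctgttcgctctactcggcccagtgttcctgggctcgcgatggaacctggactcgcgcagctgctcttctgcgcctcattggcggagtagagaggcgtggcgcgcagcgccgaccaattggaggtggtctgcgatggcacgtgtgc
The printed window of Bckdhb held AGGTCA once, beginning 119 bases before the start, and these letters were not in the windows of Bckdha and Mccc2. Bckdhb also had a window at a further start (chr9:83948531-83948780, not printed), with 0 matches. In all, 9 of the 10 members had a window in the table, some with a further start, which gave 11 windows. AGGTCA on either strand was in 2 of the 11, the one printed and 1 of Aldh6a1, against 14.0% of 32851 windows of all genes. The full repeat AGGTCANAGGTCA, of which AGGTCA is a part, was in 0 of the 11 and in 0.0335% of all windows. A match describes letters only, and its absence says nothing about binding of the receptor.

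Although neither E1 subunit passed, their values moved together from array to array and apart between genotypes. The difference of log2 signals, Bckdha minus Bckdhb, was -0.53 and -0.32 on NTG arrays 1 and 2, against 0.91 and 0.61 on MCK-PPARa arrays 1 and 2. Its mean was -0.42 ± 0.15 (SD, n = 2) in NTG and 0.76 ± 0.21 (SD, n = 2) in MCK-PPARa. The ratio of the 2 signals, each with the offset added, was thus 2.27-fold higher in the transgenic arrays with no overlap. Such a within-array ratio describes the 2 signals relative to each other, and it does not show that either of them changed. The pair was taken as the highest and the lowest of the 10 members after their values were seen, so the difference is a description with no test. Over all 45 pairs, which reuse the same 10 members, the genotypes did not overlap for 11 (24.4%). The 34.2% of all genes tested refers to single signals and not to ratios, so it is not a like measure. The share over pairs of all genes was not computed, so how common such a separation is remains unknown.

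Bckdk encodes the kinase that phosphorylates E1α and thereby holds the complex inactive. Its probe set (1460644_at) read 9580 and 6049 in NTG, against 11403 and 5767 in MCK-PPARa. Each genotype thus had a bright replicate 1 array and a dimmer replicate 2 array, and the transgenic pair enclosed the control pair. The change was 0.09 ± 0.41 (95% interval -0.85 to 1.03, limma adjusted p = 0.995), which leaves room for differences of up to 2.04-fold higher or 0.555 times the control level.

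The leucine arm was represented by isovaleryl-CoA dehydrogenase and by both subunits of methylcrotonyl-CoA carboxylase. Ivd, a flavoprotein that passes its electrons to the electron transfer flavoprotein shared with fatty acid oxidation, had 2 probe sets of opposite sign. The brighter probe set (1418238_at) read 2618 and 3636 in NTG, against 2470 and 2811 in MCK-PPARa (-0.22 ± 0.31, limma adjusted p = 0.98). The other (1449001_at) read 1562 and 1641 in NTG, against 1372 and 2449 in MCK-PPARa (0.19 ± 0.37, limma adjusted p = 0.98 over all probe sets without a filter). In both probe sets the genotypes overlapped, so the difference in sign lies within the spread.

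Mccc1 and Mccc2 encode the biotin-carrying α subunit and the β subunit of the carboxylase. Mccc1 (1417227_at) read 3739 and 3166 in NTG, against 2924 and 3986 in MCK-PPARa, with the transgenic arrays at both ends of the range (-0.01 ± 0.31, 95% interval -0.72 to 0.70, limma adjusted p = 0.998). Mccc2 (1428021_at) read 460 and 510 in NTG, against 674 and 768 in MCK-PPARa. Both transgenic arrays lay above both controls, and the arrays of a group were close to each other. The change of 0.51 ± 0.40 did not pass (95% interval -0.41 to 1.44, limma adjusted p = 0.96). limma moderates each SE towards the spread of genes of like signal, so the closeness of these arrays counts only in part. All 4 of its signals were above 423, the signal that corresponds to the filter on dim probe sets.

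The valine arm was represented by 3 enzymes. Hibch removes coenzyme A from 3-hydroxyisobutyryl-CoA, Hibadh oxidises the freed 3-hydroxyisobutyrate, and Aldh6a1, methylmalonate semialdehyde dehydrogenase, makes propionyl-CoA. Hibch (1451512_s_at) read 2211 and 3049 in NTG, against 2678 and 2327 in MCK-PPARa, both transgenic values lying between the controls (-0.06 ± 0.31, limma adjusted p = 0.995). Its other probe set (1451511_at) read 13.7 and 78.6 in NTG, against 9.8 and 35.2 in MCK-PPARa. It lay below the filter, and no change is read from signals that near the floor.

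Hibadh had the smallest SE of the members. The brighter probe set (1435967_s_at) read 8405 and 8549 in NTG, against 8845 and 10307 in MCK-PPARa, so both transgenic arrays were above both controls by a small margin (0.17 ± 0.28, 95% interval -0.48 to 0.83, limma adjusted p = 0.98). The other probe set (1423780_at) read 6788 and 7320 in NTG, against 5142 and 8259 in MCK-PPARa, where the transgenic arrays stood at both ends (-0.11 ± 0.31, limma adjusted p = 0.99 over all probe sets without a filter). The lack of overlap in the brighter probe set was therefore not shared by the other. Aldh6a1 (1448104_at) read 1191 and 2125 in NTG, against 1528 and 1970 in MCK-PPARa, the transgenic values lying between the controls (0.12 ± 0.37, limma adjusted p = 0.99).

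**Figure D2:**
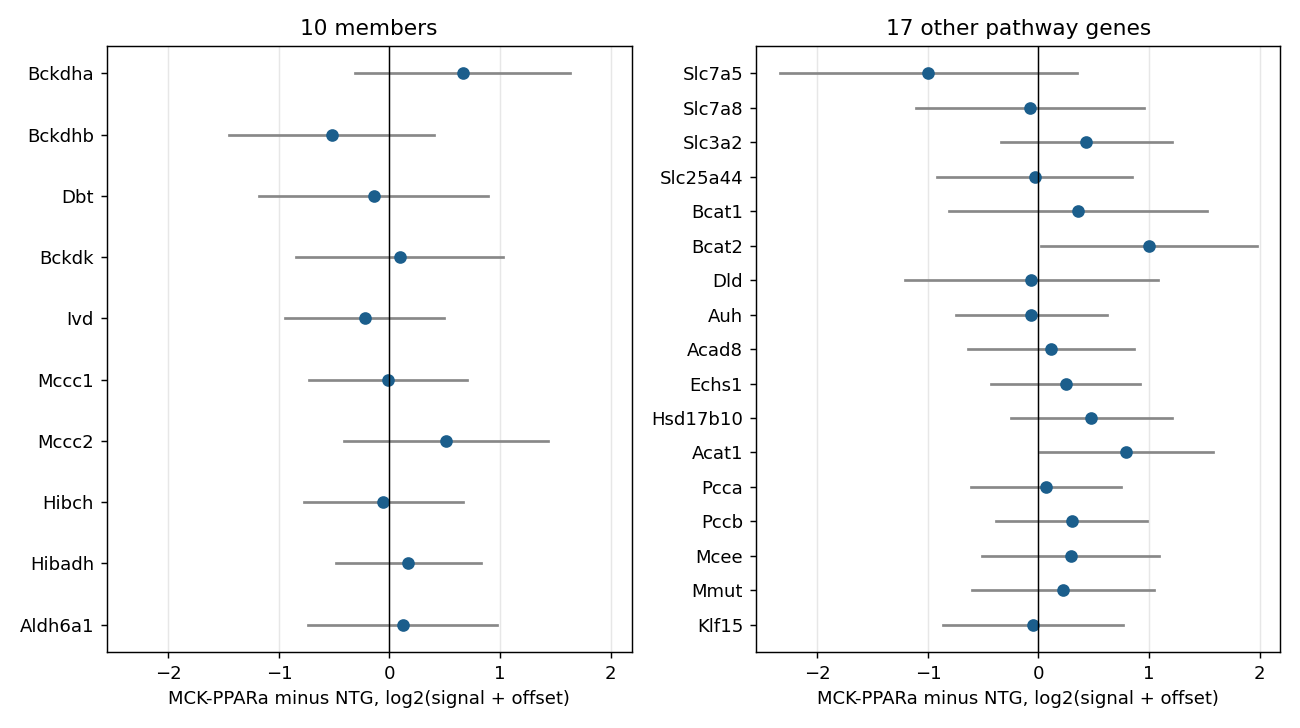
Change between genotypes, MCK-PPARa minus NTG on the log2(signal + 64.2) scale, with its 95% interval from limma (n = 2 arrays per group), for the 10 members (left) and 17 other genes of the pathway (right). All 10 intervals on the left take in 0, and on the right those of Bcat2 and Acat1 lie just above it before adjustment over genes.

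For most members the difference between array numbers, averaged with its sign over the genotypes, was larger than that between genotypes. The mean difference between the arrays numbered 1 and 2 was larger than the difference between genotypes for 8 of 10 members, and for 56.9% of all genes tested. Its median absolute size was 0.45 for the members, against 0.16 for the difference between genotypes. Over all genes tested these medians were 0.35 and 0.27. Opposite differences in the 2 genotypes cancel in this mean, as for Mccc1 and Hibch. Bckdha, Bckdhb and Bckdk were higher on the array numbered 1 in both groups, by 0.58 to 0.79 in NTG and by 0.76 to 1.06 in MCK-PPARa. Dbt, Ivd, Mccc2, Hibadh and Aldh6a1 were higher on the array numbered 2 in both groups, and Mccc1 and Hibch were mixed. The direction was thus shared between genotypes for 8 of the 10 members and for 68.2% of all genes tested. The labels do not say what a replicate number marks. The hepatocyte markers given above and the 18S control were also high on the arrays numbered 1, and their part in these differences was not tested.

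**Figure D3:**
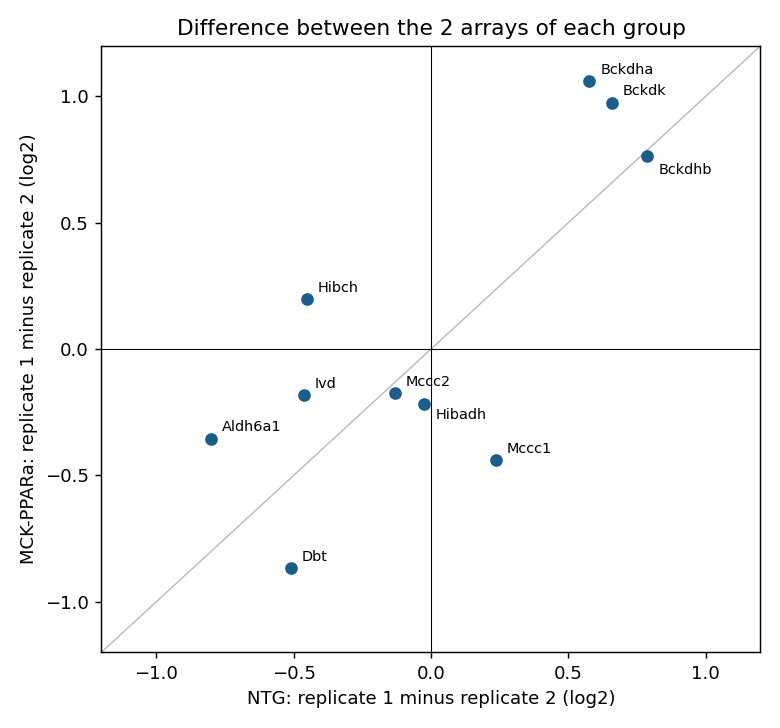
Difference between the array numbered 1 and the array numbered 2 in NTG (x axis) and in MCK-PPARa (y axis), log2 scale, 1 point per member, with the grey line marking equal differences. Bckdha, Bckdhb and Bckdk stand together at the upper right, and Dbt at the lower left.

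Of 21 further genes listed for the pathway, 18 had a probe set with that symbol alone and 17 passed the filter. The listed gene that did not pass the filter was Acadsb. None of the 17 passed the limma test over all genes, in either direction (background 0.0595%). Before adjustment 2 had p under 0.05, Bcat2 and Acat1, where 5.85% of all genes did. Their changes were above 0 for 11 and below 0 for 6 of the 17, with a median of 0.22 against 0.053 over all genes tested, and 55.5% of all genes were above 0. Both transgenic arrays lay above both controls for 5 of the 17, beside 20.3% of all genes. These were Bcat2, Echs1, Hsd17b10, Acat1 and Pccb. Both lay below both controls for 0 of the 17, beside 13.8% of all genes. The groups thus did not overlap for 5 of the 17, and for 34.2% of all genes. These counts use the brightest probe set of each gene. Among dimmer probe sets past the filter, that of Slc25a44 (1436909_at) lay below both controls (-0.62 ± 0.44). Those of Acat1 and Hsd17b10 lay above both controls. Between the arrays numbered 1 the median of the 17 was 0.20, and between those numbered 2 it was 0.13.

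Bcat2 is the mitochondrial branched-chain aminotransferase, which carries out the opening step in muscle. It read 591 and 818 in NTG, against 1020 and 2068 in MCK-PPARa, with both transgenic arrays above both controls. The change of 1.00 ± 0.42, or 2.00-fold, did not pass (limma unadjusted p = 0.046, adjusted p = 0.83). It was 0.511 with MCK-PPARa replicate 2 left out and 1.488 with MCK-PPARa replicate 1 left out, and passed in neither case (limma adjusted p of at least 0.0843). Acat1, the mitochondrial thiolase that closes the isoleucine arm and also acts on ketone bodies, read 7526 and 6851 in NTG, against 16220 and 9601 in MCK-PPARa (0.79 ± 0.34, limma unadjusted p = 0.048, adjusted p = 0.85). Leaving out MCK-PPARa replicate 1 gave 0.416, and leaving out the other transgenic array gave 1.169. Its 2 other probe sets gave 0.78 ± 0.35 and 0.71 ± 0.39, also with both transgenic arrays above both controls. Probe sets of 1 gene are not separate samples.

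In the other roles the gene with the smallest p was as follows. For transport this was Slc7a5, the large neutral amino acid transporter of the cell surface, at 888 and 572 in NTG, against 578 and 173 in MCK-PPARa (-0.997 ± 0.581, limma adjusted p = 0.96). Its groups overlapped, and the MCK-PPARa replicate 2 array was lowest. The E3 component Dld read 1591 and 4197 in NTG, against 1837 and 3327 in MCK-PPARa, so the arrays numbered 2 were higher in both groups and the genotypes overlapped (-0.07 ± 0.49, limma adjusted p = 0.995). Auh, the hydratase after the carboxylase in the leucine arm, had a change of -0.06 ± 0.30 (limma adjusted p = 0.995). In the propionate arm, where propionyl-CoA is turned into succinyl-CoA, Pccb had a change of 0.30 ± 0.29 (limma adjusted p = 0.97). Klf15, a transcription factor that promotes branched-chain amino acid breakdown in muscle, had a change of -0.05 ± 0.35 (limma adjusted p = 0.995).

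For 3 of 9 skeletal muscle markers both transgenic arrays lay above both controls, and the summed signal of the 9, given above, did so too. Some markers of other cell types also separated by genotype, where 20.3% of all genes were higher in both transgenic arrays. Of 7 adipocyte markers, 4 had a probe set and 2 passed the filter. Adiponectin (Adipoq) read 1072 and 1504 in NTG, against 3477 and 3180 in MCK-PPARa, and Retn was higher in the same way. Lep and Cidec lay below the filter, and their groups overlapped. The summed signal of the 4 markers, most of it from Adipoq and Retn, was 2670 to 3073 in NTG and 6004 to 6152 in MCK-PPARa, and none was at 0. The 4 endothelial markers summed to 8117 and 9337 in NTG, against 12152 and 12952 in MCK-PPARa. The macrophage markers also summed higher in both transgenic arrays (6228 to 7199, against 7615 to 9043). So did the red cell markers (2921 to 3389, against 3771 to 4432). Past the filter, 3 of 4 endothelial, 2 of 3 macrophage and 1 of 2 red cell markers lay higher in both transgenic arrays. Tek, Cd68 and Hba-a1 overlapped. For 1 of 4 fibroblast markers both transgenic arrays lay below both controls, beside 13.8% of all genes. The 1 Schwann cell marker with a probe set, S100b, lay below the filter, and no change is read from it. The sums of the fibroblast markers (121294 to 137843, against 134990 to 147984) and the smooth muscle markers (12638 to 15581, against 11843 to 12720) overlapped. No marker passed the test, and their part in the values of the pathway genes was not tested. In whole muscle, a change in the share of a cell type and a change of RNA per cell cannot be told apart.

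**Figure D4:**
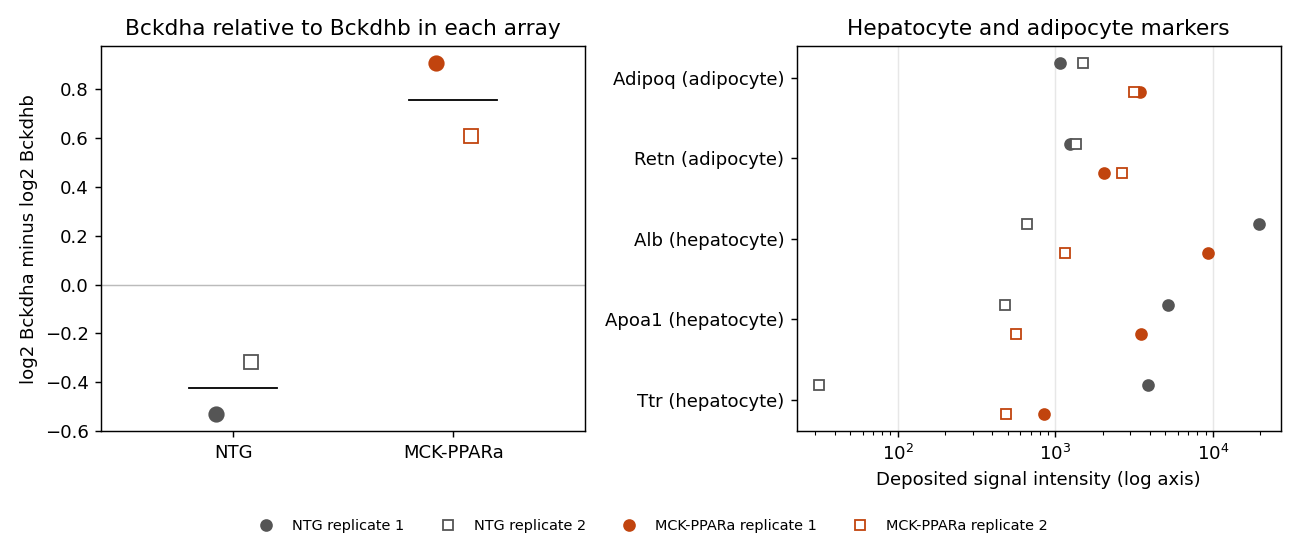
Left, difference of log2 signals between Bckdha and Bckdhb on each array, with black lines for the group means; both NTG arrays lie below 0 and both MCK-PPARa arrays above. Right, deposited signal (log axis) of the adipocyte and hepatocyte markers that passed the filter, in the same symbols: Adipoq and Retn separate by genotype, and Alb, Apoa1 and Ttr separate by replicate number.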

How the data were processed

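Total RNA from gastrocnemius of 2 NTG and 2 MCK-PPARa samples was hybridised to 1 Affymetrix array each. The authors deposited 1 table of linear signal intensity values, made with MAS5 per the submitters' processing notes; the sources used here give no version, settings or detection calls. The 2% trimmed means were nearly equal, so no further normalization was applied. Gene names came from the platform annotation: 20380 had 1 symbol, 691 several and 1555 none, besides 64 controls. Symbols were checked by Entrez ID against RefSeq's gene table, and 0 needed updating.

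Values were taken as log2(signal + 64.2), the offset being 10% of the median of all values. Probe sets whose mean log2 value lay under the 40th percentile were dropped, and the brightest remaining one stood for its gene (8400 genes). limma 3.58.1 under R 4.3.3 (lmFit, eBayes with a variance trend, 7.86 total degrees of freedom) gave two-sided p-values with Benjamini-Hochberg adjustment, called at 0.05. Other probe sets of a gene come from the same fit on all single-symbol probe sets without a filter. With 2 arrays against 2, an exact permutation test cannot go below 0.333 two-sided. No depth applies to arrays, and their number limits the precision. Members, gene lists and markers were chosen with earlier results of these data known, so no p was adjusted over a list and no set test was made. Named were all members, Ppara, the further pathway gene with the smallest p in each role, and markers at the ends of their lists. Echs1, Hsd17b10, Slc25a44, Retn, Lep, Cidec and the ratio of Bckdha to Bckdhb were named after their values were seen. The fit was also run on simulated arrays with independent noise on each. They lack the likeness of same-numbered arrays seen here, so that run does not cover it. Alternatives were the offset, filter, normalization, choice of probe set, variance trend, replicate block and each array left out.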

Additional observations from a re-analysis of the deposited data

How the results depend on the processing

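Under all 13 alternatives 0 members and 0 of the further pathway genes passed, and the lowest limma adjusted p of any member was 0.228 (Bckdha with the replicate block). The filter at the 60th percentile removed 2 of the 10 members, so 8 were tested there. Of 128 recomputed member changes 115 kept their sign. The runs without a filter, with the stricter filter, without the variance trend and with the replicate block returned the same changes as the fit reported. No sign could turn in those runs, so the count overstates stability. Bckdha, Bckdhb, Mccc2 and Hibadh kept theirs in every alternative run, with ranges of 0.13 to 1.19, -0.92 to -0.13, 0.37 to 0.60 and 0.029 to 0.28. For Mccc2 and Hibadh, whose groups did not overlap, leaving out 1 array could not turn the sign. The members' median of 0.040 was -0.062 with median centring, which also moved the median of all genes from 0.053 to -0.049, and it ran from -0.01 to 0.17 when 1 array was left out. Median centring turned Bckdk to -0.011, and quantile normalization turned Mccc1 to 0.02. With 1 array left out, the changes ran from -0.28 to 0.52 for Aldh6a1, -0.40 to 0.58 for Bckdk, -0.58 to 0.29 for Dbt, -0.28 to 0.17 for Hibch, -0.46 to 0.009 for Ivd and -0.23 to 0.21 for Mccc1. The cause of these reversals was not tested.

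The number of all genes called, 5 in the fit reported, was 2 with the filter at the 60th percentile, 3 with median centring, 12 with the mean of all probe sets of a gene, 196 with the replicate block, and 68 to 150 with 1 array left out. The cause was not tested. The labels tie arrays across the groups by a replicate number alone. Deviations from the group means correlated at 0.465 between same-numbered arrays across genes, which are not independent replicates. With that number as a block 0 members passed, 2 had an unadjusted p under 0.05, where 14.6% of all genes did in the same fit, and the adjusted p was 0.23 for Bckdha and 0.32 for Bckdhb. The number of arrays limits the precision of every change given.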
